A study of Homo sapiens with 19 samples.

Results

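In 786-O cells that carry the empty vector, the endogenous HIF-2α peak list held 1719 windows of 2500 bp. Of these, 373 shared no base with any HIF-1α window of the HIF-1α re-expressing cells and at least 1 base with a HIF-2α window of those same cells. These 373 windows are called HIF-2α-only kept sites: places where HIF-2α was called before and after HIF-1α was put back and where HIF-1α itself was not called. The rule used 3 of the 7 peak lists, which together hold 29309 windows, so the sites were chosen by the presence of HIF-2α calls in control and re-expressing cells and the lack of a HIF-1α call. Those HIF-2α calls in both pools and the missing HIF-1α call are no finding. The other 4 lists, the DNA sequence, the position relative to genes and the RNA counts were not used to choose them. The remaining control HIF-2α sites were 599 without HIF-1α that were not called again in re-expressing cells, 448 called again and overlapping HIF-1α, and 299 overlapping HIF-1α and not called again. Below, sites not called again means the 599 without HIF-1α, unless HIF-1α is named.

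HIF transcription factors are heterodimers of an oxygen-regulated α subunit, HIF-1α or HIF-2α, and the constitutive partner HIF-1β (gene ARNT), and they bind a short core sequence, the hypoxia response element (HRE). The VHL protein normally marks both α subunits for destruction in oxygenated cells. Clear cell renal carcinomas commonly lose VHL, so that HIF is active without hypoxia, and HIF-2α is regarded as the main driver of growth in this cancer. Both α subunits read the same core, and HIF-2α sites often lie far from promoters, where they can coincide with sites of other factors such as AP-1, a dimer of FOS and JUN family proteins.

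The study asked how each α subunit, when added to the same VHL-defective renal carcinoma line, changes HIF binding and gene expression. 786-O is an established line that makes HIF-2α and lacks full-length HIF-1α, although it makes truncated HIF1A transcripts. Pools of these cells were transduced with lentivirus of the vector pRRL alone (control), of pRRL-HIF-1a (re-expressing cells) or of pRRL-HIF-2a (overexpressing cells), so every pool carried the same VHL defect, the same endogenous HIF-2α and a bicistronic EGFP vector, and the added subunit was expressed from the virus. HIF-2α (antiserum PM9) and HIF-1β (NB100-110) were precipitated in all 3 pools and HIF-1α (PM14) in the re-expressing pool, with 1 ChIP-seq library for each antiserum and pool, and polyA+ RNA was sequenced from 3 libraries of each pool.

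The lists give positions alone, with no height, score or read number, so sites of like height could not be compared and the depth of the ChIP libraries is unknown. RNA libraries held between 27852754 and 54287621 counts. The RNA carried the renal markers PAX8 at 175 to 364 CPM (the count of a gene scaled to the size of its library, so that libraries can be compared) and PAX2 at 8.53 to 26.7 CPM, whereas the leukocyte, endothelial and hepatic markers PTPRC, CD3E, PECAM1 and ALB did not exceed 0.838 CPM in any library. HIF1A read 30.4, 36.7 and 152 CPM in control cells, 171, 1682 and 473 CPM in HIF-1α re-expressing cells and 15.3, 30.4 and 17.5 CPM in HIF-2α overexpressing cells. EPAS1, which encodes HIF-2α, read 456, 224 and 162 CPM in control cells, 575, 627 and 397 CPM in re-expressing cells and 946, 3244 and 880 CPM in overexpressing cells. Each added subunit was therefore highest in the pool labelled for it, without overlap with the control libraries, although for HIF1A the nearest libraries, at 152 and 171 CPM, were close.

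The sequences around the motifs show what HIF-2α-only kept sites look like at the level of bases. They were read from the human reference genome GRCh37 (hg19) on the plus strand, 25 bases beyond the outermost motif within 150 bp of the window midpoint, and capitals mark the motif letters. The HRE core was searched as ACGTG or GCGTG on both strands, so that it reads CACGT or CACGC where it lies on the minus strand, and the AP-1 motif as TGAGTCA, which reads TGACTCA on the other strand. The palindrome CACGTG counts as 1 core. The first group holds 4 of the motif-bearing sites nearest to genes named below, not all of them, ordered by how closely the HIF-2α midpoints of both pools coincide.
SUSD1 site, chr9:114881805-114881859: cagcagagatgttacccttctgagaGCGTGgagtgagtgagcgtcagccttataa
VPS13D site, chr1:12538486-12538540: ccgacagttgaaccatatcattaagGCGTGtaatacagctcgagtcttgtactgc
PTPRB site, chr12:71039373-71039428: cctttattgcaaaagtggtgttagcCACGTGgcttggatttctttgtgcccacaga
TRIO site, chr5:14154567-14154679: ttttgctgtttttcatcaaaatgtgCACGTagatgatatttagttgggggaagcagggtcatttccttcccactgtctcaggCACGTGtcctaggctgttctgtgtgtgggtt

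The SUSD1 and VPS13D sites have 1 core each, the PTPRB site a CACGTG palindrome, and the TRIO site 1 palindrome and 1 simple core. This TRIO site is the edge case of the rule. Its HIF-2α windows of both pools share only 22 bases, with midpoints 2478 bp apart, the largest distance of all kept sites. The 15 bases centred on a core occur 2 times in the genome, counting both strands, for the SUSD1 and VPS13D cores and 9 times for the PTPRB core. Sites with both an HRE core and an AP-1 motif form the second group, and these 4 were chosen after their values were seen. They were picked by how closely the HIF-2α midpoints of both pools coincide. Some sites were left out, so they are not the 4 closest of all.
LINC02977 site (SUSD1 the nearest protein-coding gene), chr9:114791086-114791279: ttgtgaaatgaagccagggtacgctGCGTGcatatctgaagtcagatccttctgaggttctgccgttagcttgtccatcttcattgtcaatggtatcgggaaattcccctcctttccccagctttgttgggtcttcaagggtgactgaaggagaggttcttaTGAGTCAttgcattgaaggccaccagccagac
ENSG00000225676 site (LIF the nearest protein-coding gene), chr22:30592077-30592296: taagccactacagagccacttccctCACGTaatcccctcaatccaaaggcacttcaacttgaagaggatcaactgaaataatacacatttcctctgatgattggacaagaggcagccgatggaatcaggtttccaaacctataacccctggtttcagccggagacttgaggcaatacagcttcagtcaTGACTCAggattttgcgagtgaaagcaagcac
ENSG00000224132 site (COL6A3 the nearest protein-coding gene), chr2:238136297-238136535: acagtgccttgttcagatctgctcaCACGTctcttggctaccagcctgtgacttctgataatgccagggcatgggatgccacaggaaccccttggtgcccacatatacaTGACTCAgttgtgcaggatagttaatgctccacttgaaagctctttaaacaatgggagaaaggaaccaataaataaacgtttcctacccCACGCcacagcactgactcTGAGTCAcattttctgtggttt
ENSG00000283973 site (SLC2A1 the nearest protein-coding gene), chr1:43428448-43428671: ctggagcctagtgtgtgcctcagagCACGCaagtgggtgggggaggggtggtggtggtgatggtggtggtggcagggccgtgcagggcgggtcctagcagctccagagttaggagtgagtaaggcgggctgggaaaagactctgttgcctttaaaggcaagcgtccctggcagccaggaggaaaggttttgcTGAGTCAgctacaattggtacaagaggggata

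In these 4 sites no HRE core overlaps an AP-1 motif, although the last core and the last AP-1 motif of the ENSG00000224132 site lie close together. No copy of the 15 bases around any of their motifs occurs more than 8 times in the genome. A match of letters is a description of the DNA and not a measured contact.

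The edges of the rule are narrow for a few sites. The smallest overlaps of a kept site with a HIF-2α window of re-expressing cells were 22, 42 and 102 bases, and the nearest sites left out for want of an overlap missed by 14, 269 and 301 bases. The smallest gaps between a kept site and a HIF-1α window were 82, 261 and 457 bases, and the smallest overlaps that placed a site in the HIF-1α group were 102, 135 and 156 bases. Most kept sites were far from those edges. The median gap to the nearest HIF-1α window was 79.3 kb, 170 sites lay over 100 kb from one, 60 lay within 10 kb and 35 within 5 kb.

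By the rule, the HIF-2α windows of both pools share bases at every kept site. The distance between their midpoints is therefore always shorter than the window length, and that limit is no finding. Within it, most midpoints lay close together. The midpoint of the matching window in re-expressing cells was 130 bp away at the median kept site, at most 100 bp away at 152 of 373 sites (40.8%) and at most 250 bp away at 271 (72.7%). It was at most 1000 bp away at 349 sites (93.6%), and the largest distance was 2478 bp, at a site in TRIO. The 373 sites matched 374 windows of the re-expressing list, since 2 sites matched a pair of windows each and 1 window was shared between neighbouring sites. Sites whose midpoints coincided carried motifs more often: an HRE core lay within 150 bp of the midpoint at 66.1% (95% Wilson interval 60.2 to 71.4) of sites with a shift of at most 250 bp and at 43.1% (33.9 to 52.8) of sites with a larger shift. The AP-1 motif, at 29.5% and 16.7%, split the same way.

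**Figure D1:**
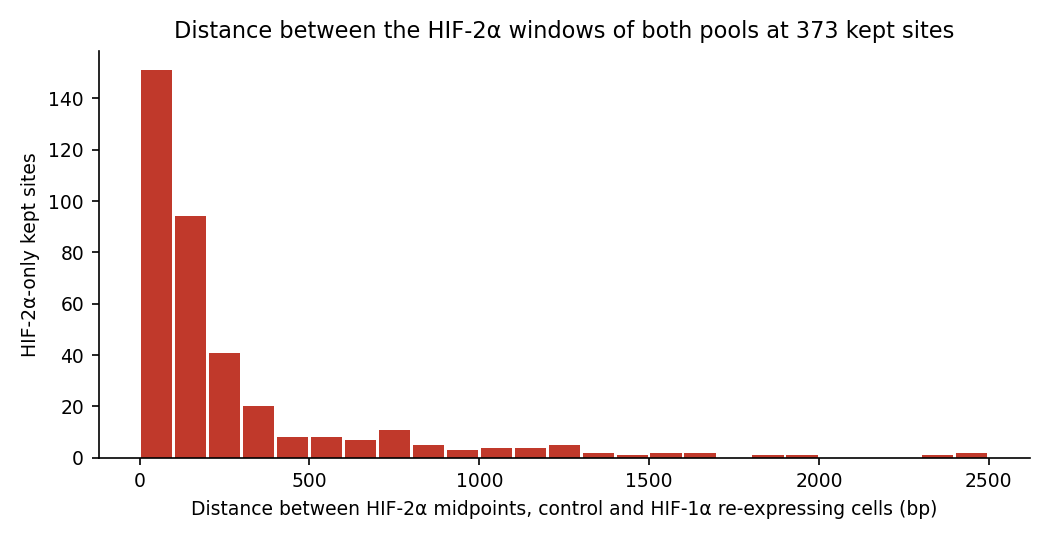
Histogram of the distance in bp, in bins of 100 bp, between the midpoints of the control HIF-2α window and the matching HIF-2α window of HIF-1α re-expressing cells at the 373 HIF-2α-only kept sites, with the number of sites on the vertical axis. The first bin holds 151 sites and the second 94, and the tail reaches 2478 bp. The rule that chose the sites keeps every distance below the window length.

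HIF-1β, the obligate partner, was called at nearly all kept sites in control cells. A HIF-1β window shared at least 1 base with 351 of 373 kept sites (94.1%, 95% Wilson interval 91.2 to 96.1), against 69.1% (65.3 to 72.7) of the HIF-2α-only sites that were not called again. The difference was 25 percentage points (95% Newcombe interval 20.4 to 29.3). Sites called again together with HIF-1α had a control HIF-1β window in 98.9% of cases. All such intervals cover counting error only, since 1 library for each antiserum gives no error between replicates, and no test was made between sets of sites.

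After HIF-1α re-expression fewer kept sites had a HIF-1β call than in control cells, although HIF-2α was, by the rule, called there in both. HIF-1β of re-expressing cells was called at 158 kept sites (42.4%, 37.4 to 47.4), at 13.5% (11 to 16.5) of sites not called again and at 68.8% of kept sites with HIF-1α. The kept sites thus stood 28.8 points (23.1 to 34.5) above the first set and differed from the second by -26.4 points (-32.8 to -19.7). Sites with HIF-1α that were not called again read 50.5%, and the kept sites differed from them by -8.14 points (-15.6 to -0.562). Among the 351 kept sites with control HIF-1β, 152 (43.3%) had it again, against 17.4% of the corresponding sites that were not called again, a difference of 25.9 points (19.5 to 32.1). The whole HIF-1β list was of similar size in both pools, with 6572 windows in control and 5807 in re-expressing cells. Whether a missing HIF-1β window means less HIF-1β or a signal just under the caller's limit was not tested here, because the lists carry no heights. By read signal over all endogenous HIF-2α sites, not the kept ones alone, the study reported similar HIF-2α and similar HIF-1β in control and re-expressing cells. Over all peak regions it reported a rise in total HIF-1β signal after re-expression, which the list sizes do not show. Whether HIF-2α signal was lower at sites not called again was not tested here.

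When HIF-2α was overexpressed, HIF-2α was called at almost every kept site. The HIF-2α list of overexpressing cells, with 5283 windows, covered 356 kept sites (95.4%, 92.8 to 97.1), against 74.3% of sites not called again, a difference of 21.2 points (16.9 to 25.2). For kept sites with HIF-1α the share was 97.5%. HIF-1β of the same cells was called at 235 kept sites (63.0%, 58.0 to 67.7), against 27.0% of sites not called again, a difference of 36.0 points (29.7 to 41.8), and 96.2% of kept sites with HIF-1α. Sites with HIF-1α that were not called again read 79.3% for HIF-2α and 74.9% for HIF-1β. The kept sites differed from these by 16.2 points (11.2 to 21.4) and -11.9 points (-18.7 to -4.87). In each of the 4 lists the kept HIF-2α-only sites lay between sites not called again and kept sites with HIF-1α. They were nearest to the latter for HIF-2α and farthest from it for the HIF-1β calls of both transduced pools.

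Site by site, the commonest pattern was a call in all 4 lists, at 123 kept sites (33.0%), which is also the number with HIF-1β in every pool. HIF-1β was called in every pool at 7.35% of sites not called again and at 66.7% of kept sites with HIF-1α. The share was 38.5% at sites with HIF-1α that were not called again. Another 105 kept sites lacked only the HIF-1β call of re-expressing cells, 85 had control HIF-1β and HIF-2α of overexpressing cells alone, and 27 lacked only HIF-1β of overexpressing cells. No HIF-1β was called in any pool at 14 kept sites (3.75%), against 173 (28.9%) of the sites not called again. Sites without any partner call were also rare where HIF-1α was called, at 3.01% of those not called again and 0% of those kept.

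The kept sites that had HIF-1β in a transduced pool held an HRE core more often than those that lacked it there. An HRE core was present at 66.5% of kept sites with and 54.9% of those without HIF-1β of re-expressing cells, a difference of 11.6 points (1.51 to 21.2). The same split by HIF-1β of overexpressing cells gave 64.7% and 51.4%, a difference of 13.2 points (2.90 to 23.3). Split by HIF-1β of control cells, which few kept sites lacked, the shares were 59.8% and 59.1%. That difference was 0.738 points (-17.7 to 21.7), a wide interval that holds 0. For AP-1 the corresponding differences were -2.29, -2.43 and 3.48 points, with intervals that hold 0. Nearness of a HIF-1α window went with no higher share: HIF-1β of re-expressing cells was called at 36.7% of kept sites within 10 kb of one and at 43.5% of the others.

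An HRE core lay within 150 bp of the midpoint of 223 kept sites (59.8%, 54.7 to 64.6). In windows of the same length 2 kb to either side the share was 28.3% (25.2 to 31.6), and over the 7 whole lists it ran from 45.9% to 68.4%. The kept sites held a core 9.20 points (2.77 to 15.5) more often than sites not called again (50.6%), and their difference from kept sites with HIF-1α (67.4%) was -7.63 points (-14.2 to -1.03). The first difference was 8.86 points (2.93 to 14.5) within 250 bp and 4.94 points (-0.55 to 10.6), an interval that holds 0, within 50 bp. ACGTG occurred at 162 kept sites (43.4%) and GCGTG at 102 (27.3%), some sites holding both. At least 2 cores lay in 71 kept sites (19%), against 17.0% of sites not called again and 32.6% of kept sites with HIF-1α. Sites with HIF-1α that were not called again held a core at 67.2% and at least 2 cores at 32.8%.

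The AP-1 motif lay within 150 bp of the midpoint of 97 kept sites (26.0%, 21.8 to 30.7), against 5.09% in the flanking windows. Its share ran from 4.99% to 27.5% over the 7 lists, and the kept sites were thus near the top of that range. At sites not called again it was 31.7%, and the difference, kept minus not called again, was -5.71 points (-11.4 to 0.191), an interval that holds 0. The size of the window bears on this: within 50 bp of the midpoint the difference was -4.31 points (-8.03 to -0.307) and within 250 bp -8.39 points (-14.5 to -2.11), intervals that do not hold 0. At kept sites with HIF-1α it was 27.0%. Both motifs occurred at 60 kept sites (16.1%) and neither at 113 (30.3%). With matches in repeated DNA left out, that is those whose central 15 bases occur over 1000 times in the genome, an HRE core remained at 57.6% and an AP-1 motif at 25.5% of kept sites.

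The motifs were gathered at the midpoints. HRE cores reached 29.5 per 100 kept sites in the fullest 100-bp bin, next to the midpoint, against a median of 12.7 in bins beyond 1 kb, where no bin exceeded 15. AP-1 motifs reached 10.2 per 100 kept sites against a median of 2.41 beyond 1 kb. At sites not called again the fullest bin of HRE cores, on the other side of the midpoint, held 28.9, and the AP-1 peak was 15. In the bins centred at -150, -50, 50 and 150 bp, HRE cores were 22.3, 29.2, 29.5 and 26.5 per 100 kept sites. At sites not called again they were 17.5, 28.9, 22.0 and 19.2. The HRE core nearest the midpoint was 57 bp away at the median kept site that had one, and the nearest AP-1 motif 76 bp, with 47.1% and 30.9% of them within 50 bp.

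**Figure D2:**
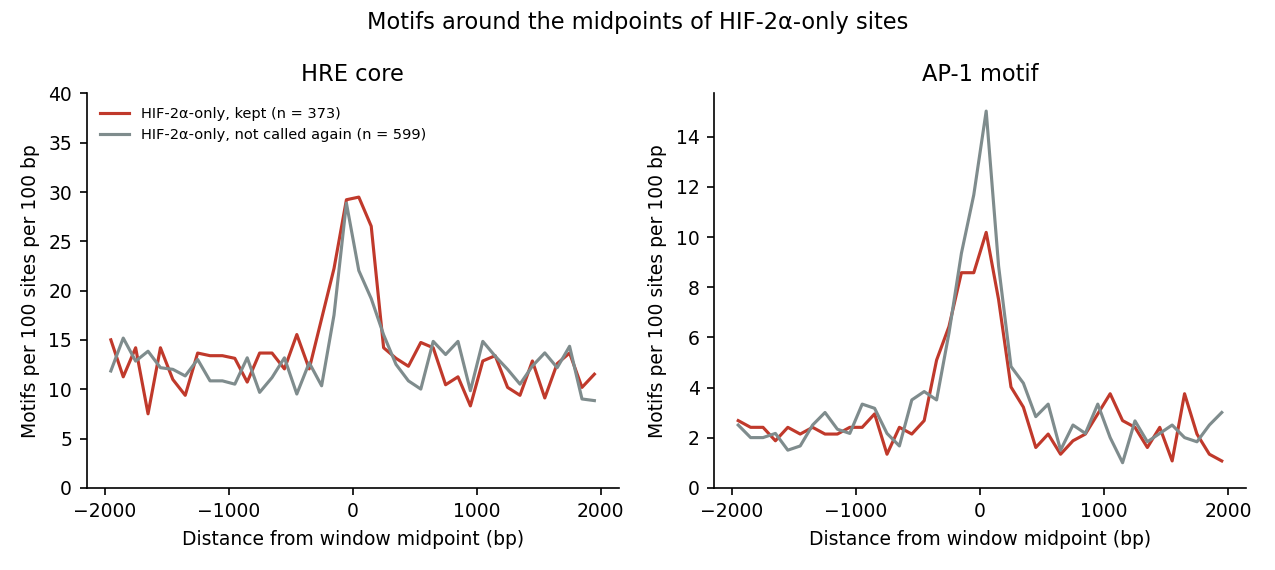
HRE cores (left) and AP-1 motifs (right) per 100 sites in 100-bp bins, against the distance in bp from the window midpoint, for HIF-2α-only kept sites (n = 373) and HIF-2α-only sites not called again (n = 599). The HRE lines of both sets rise at the centre, to 29.5 and 28.9 on opposite sides of the midpoint. In the bin centred at 50 bp they read 29.5 at the kept sites and 22.0 at the others. There the AP-1 line is lower at the kept sites, at 10.2 against 15.

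The bases next to the core also differed between the sets. Taking 1 core for each site, the one nearest the midpoint, a T stood directly before it at 111 of 223 kept sites (49.8%, 43.3 to 56.3), against 40.3% of sites not called again and 34.1% of kept sites with HIF-1α. The differences were 9.51 points (0.923 to 17.9) and 15.7 points (7.14 to 24.0). The core contains a CpG, and of 1682 CpGs within 150 bp of the kept midpoints 313 (18.6%, 16.8 to 20.5) lay in a core. That share was 15.5% (14.2 to 16.9) at sites not called again, 12.4% at kept sites with HIF-1α and 10.4% in the flanks of the kept sites. The windows themselves were poor in CpG, with a median of 4 within 150 bp and a median GC content of 46.2%, as at sites not called again (4 and 45.8%) and below the kept sites with HIF-1α (7 and 55.5%). The palindrome CACGTG, also the E-box read by other bHLH factors, occurred at 18 kept sites (4.83%), against 7.51% and 9.38% of those sets.

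Most HIF-2α-only kept sites were distant from promoters. The nearest annotated start site of any transcript was 9.70 kb from the midpoint at the median kept site and 248.4 kb at the farthest, against medians of 8.59 kb for sites not called again and 4.04 kb for kept sites with HIF-1α. Within 1 kb of a start site lay 34 kept sites (9.12%), against 13.0% and 28.6%. Within 5 kb lay 128 kept sites (34.3%, 29.7 to 39.3), beside 34.6% of sites not called again and 55.6% of kept sites with HIF-1α, a difference from the latter of -21.3 points (-27.7 to -14.5). By annotation, 235 kept midpoints (63.0%) were intronic and 122 (32.7%) intergenic, while 12 lay in exons of non-coding transcripts, 3 in untranslated regions and 1 in coding sequence.

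**Figure D3:**
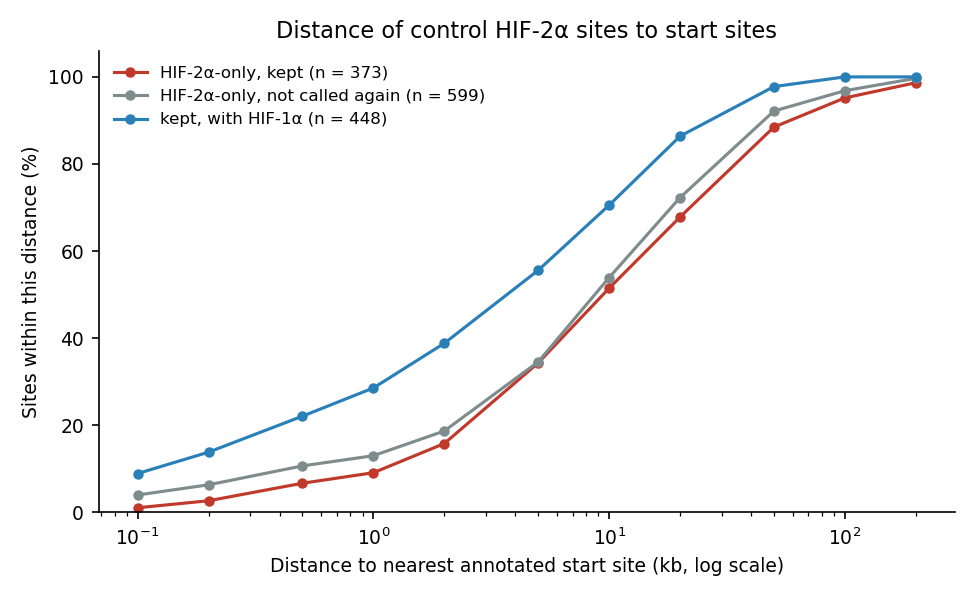
Cumulative share of sites, in percent, within a given distance in kb (log scale) of the nearest annotated start site, for HIF-2α-only kept sites (n = 373), HIF-2α-only sites not called again (n = 599) and kept sites with HIF-1α (n = 448). At 5 kb the lines read 34.3%, 34.6% and 55.6%, and at 50 kb 88.5% of the kept sites are included.

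The gene nearest to a kept site was protein-coding for 154 sites (41.3%) and a long non-coding RNA for 138 (37%). Compared with sites not called again, the share of protein-coding genes differed by -6.79 points (-13.1 to -0.357) and that of long non-coding RNAs by 8.12 points (2.07 to 14.2). The 373 sites had 343 different nearest genes, of which 316 had 1 kept site, 24 had a pair and 3 had at least 3. Kept sites were seldom neighbours, with 55 having another within 50 kb. Of the genes with 3 sites, SMAD3, which transduces TGF-β signals to the nucleus, held windows at chr15:67367637-67370136, chr15:67400981-67403480 and chr15:67419055-67421554, the second with 4 HRE cores and calls in all 4 other lists. The other two were long non-coding RNA genes, ENSG00000225676, whose nearest protein-coding neighbour is LIF, the gene of a cytokine of the interleukin-6 family, and ENSG00000243004.

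RNA was compared at the 148 genes that were nearest to a kept site and abundant enough to be tested, out of 162 such genes matched to the count table. In bulk RNA, fewer cells with a transcript and less RNA in each cell cannot be told apart, and p-values here measure the spread between the 3 libraries of each pool, which the labels do not describe as separate cultures. Both comparisons with control cells share the same 3 control libraries. Without a term for the replicate number, edgeR called none of the 148 genes at an adjusted p under 0.05 in either comparison with control cells or between the transduced pools, where it called 0% of all 14225 genes in the first pair of comparisons and, between the transduced pools, 0.0211% as higher and 0.0281% as lower in overexpressing cells. At an unadjusted p under 0.05, 34 of the 148 (23%) passed after HIF-1α re-expression, against 19.4% of all genes. After HIF-2α overexpression 22 (14.9%) passed, against 5.89%, and between the transduced pools 30 (20.3%) passed, against 13.6%. Such shares were not particular to kept sites. After HIF-2α overexpression 14.8% of genes passed near sites not called again and 18.1% near kept sites with HIF-1α. Near sites with HIF-1α that were not called again 8.15% passed. Between the transduced pools the shares of these sets were 21.2%, 24.1% and 13.6%. The median log2 fold change of the 148 was 0.14 after HIF-1α and 0.12 after HIF-2α, beside 0.04 and -0.02 for all genes tested.

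Libraries with the same replicate number deviated together, and edgeR with the replicate number as a block made more calls. Of the 148 genes, 10 rose and 4 fell after HIF-1α re-expression (6.76% and 2.70%), near the 5.41% and 2.55% of all genes. After HIF-2α overexpression 2 rose and none fell (1.35%), against 0.112% and 0.155% of all genes, with 45 of the 148 (30.4%) at an unadjusted p under 0.05, against 14.5% of all genes. That last share was 29.6% near sites not called again and 28.7% near kept sites with HIF-1α. It was 22.3% near sites with HIF-1α that were not called again. Overexpressing against re-expressing cells, 13 were higher and 10 lower (8.78% and 6.76%), against 1.38% and 4.54%. Near kept sites with HIF-1α these shares were 7.87% and 7.41%, and near sites not called again 4% and 9.2%. Near sites with HIF-1α that were not called again they were 1.63% and 7.07%. Over all genes as among these, fewer calls were made when libraries were left out, which also lowers the power of the fit. With the libraries of replicate 1, 2 or 3 left out, the blocked fit called 6, 0 and 0 of these genes after HIF-1α, beside 295, 0 and 1 of all genes, and 1, 0 and 0 after HIF-2α, beside 30, 9 and 7 of all genes. DESeq2 without the block called 9 of the 148 after HIF-1α (6.08%, against 5.46% of all genes), 4 after HIF-2α (2.7%, against 0.423%) and 16 between the transduced pools (10.8%, against 4.25%).

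PTPRB, which encodes a receptor-type tyrosine phosphatase known from endothelium, rose on HIF-2α overexpression. Its site at chr12:71038106-71040605 lies 8.14 kb upstream of PTPRB, in an intron of its neighbour PTPRR, and was called in all 4 other lists. PTPRB read 45.7, 44 and 23.8 CPM in control cells, 57.2, 68.8 and 32.0 CPM in re-expressing cells and 79.9, 109 and 58.5 CPM in overexpressing cells. Overexpressing libraries did not overlap control libraries and replicate 3 was lowest in every pool. The blocked log2 fold change was 1.14 (SE 0.17, adjusted p = 0.0372), with 1.13 and an adjusted p of 0.772 without the block, where DESeq2 gave 0.268.

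TGFA, which encodes a ligand of the EGF receptor, moved apart in the transduced pools. Its intronic site at chr2:70750578-70753077 had no HRE core or AP-1 motif within 150 bp of the midpoint and was called for HIF-1β in control and overexpressing cells but not in re-expressing cells. TGFA read 958, 570.5 and 970.5 CPM in control cells, 596, 459 and 617 CPM in re-expressing cells and 1528, 2567 and 2858 CPM in overexpressing cells. Overexpressing libraries stood above all others, and each re-expressing library was below its same-numbered control. Between the transduced pools the blocked log2 difference was 2.06 (SE 0.28, adjusted p = 0.00571), with an adjusted p of 0.0541 without the block. Against control cells neither pool passed in edgeR, at 1.49 (SE 0.28, adjusted p = 0.0695) for HIF-2α and -0.57 (SE 0.27, adjusted p = 0.174) for HIF-1α with the block. DESeq2 without the block passed the HIF-2α comparison (adjusted p = 0.00372) and not the HIF-1α comparison (adjusted p = 0.26).

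SMAD3, MET and TGFBI did not pass in either comparison with control cells, in edgeR with or without the block or in DESeq2 without it. MET, the receptor of hepatocyte growth factor, has an intronic site at chr7:116345357-116347856 and ranged from 401 to 804 CPM in control cells, 540 to 774 CPM in re-expressing cells and 626 to 862 CPM in overexpressing cells, so that the pools overlapped. TGFBI encodes a secreted matrix protein, and its site at chr5:135392263-135394762 lies in the gene, 0.943 kb upstream of an internal start site. It read 795, 1697 and 3238 CPM in control cells, 1065, 1679 and 6286 CPM in re-expressing cells and 2449, 3158 and 4105 CPM in overexpressing cells, a wide spread within each pool. SMAD3 read 145, 229 and 161 CPM in control cells, 140, 246 and 260 CPM in re-expressing cells and 172, 515 and 228 CPM in overexpressing cells.

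After HIF-1α re-expression, the 8 genes with the largest rises in the blocked fit were KCNIP1, SHC3, TMEM91, OXR1, VPS13D, TRIO, SUSD1 and ASPH, with log2 fold changes from 0.94 to 1.27 and adjusted p from 0.0358 to 0.0471. None of them passed in edgeR without the block, whereas DESeq2 without the block passed OXR1 (adjusted p = 0.00492), SUSD1 (0.0108) and TRIO (0.0469). TRIO encodes a guanine nucleotide exchange factor and has a pair of kept sites, at chr5:14153376-14155875 and chr5:14264551-14267050. The HIF-2α midpoints of both pools lie 2478 and 968 bp apart at these sites, so their match is loose. TRIO read 216, 265 and 158 CPM in control cells, 340, 573 and 362 CPM in re-expressing cells and 377, 589 and 471 CPM in overexpressing cells. Both transduced pools stood above all control libraries, with blocked log2 fold changes of 0.98 (SE 0.19, adjusted p = 0.0358) for HIF-1α and 1.17 (SE 0.19, adjusted p = 0.0506) for HIF-2α.

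OXR1, a gene of protection against oxidative damage, has an intronic kept site 52.3 kb from its nearest start site. It read 41.3, 40.3 and 36.6 CPM in control cells, 57.8, 91.5 and 104 CPM in re-expressing cells and 45.3, 52.3 and 44.2 CPM in overexpressing cells, a rise of 1.07 on the log2 scale (SE 0.21, adjusted p = 0.0358). SUSD1, with a kept site at chr9:114880695-114883194, read 28.5, 21.8 and 31.4 CPM in control cells, 46.5, 46.0 and 65.8 CPM in re-expressing cells and 23.9, 21.7 and 20.3 CPM in overexpressing cells. The re-expressing libraries of both genes lay above all others. SUSD1 rose by 0.95 (SE 0.20, adjusted p = 0.0363) after HIF-1α and was lower in overexpressing than in re-expressing cells, at -1.24 (adjusted p = 0.00971).

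KCNIP1, which encodes a calcium-binding subunit of potassium channels, was low in every library. It read 2.87, 1.28 and 7.27 CPM in control cells, 6.86, 3.75 and 15.7 CPM in re-expressing cells and 0.554, 0.558 and 0.925 CPM in overexpressing cells. The control and re-expressing libraries overlapped, but each re-expressing library was above its same-numbered control, with a blocked log2 fold change of 1.27 (SE 0.32, adjusted p = 0.0471). Overexpressing libraries were below all others, and their log2 difference from re-expressing cells was -3.51 (SE 0.37, adjusted p = 0.00273). SHC3, an adaptor of receptor tyrosine kinases, read 10.0, 5.69 and 13.1 CPM in control cells and 21.5, 14.3 and 33.7 CPM in re-expressing cells, a rise of 1.25 (SE 0.28, adjusted p = 0.0399). TMEM91 read 2.2 to 3.83 CPM in control cells and 4.34 to 10.6 CPM in re-expressing cells.

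VPS13D, a member of a family of lipid transfer proteins, has a kept site in an intron of the gene, 0.109 kb upstream of an internal start site. It read 46.8, 34.7 and 21.3 CPM in control cells and 62.6, 69.0 and 72.0 CPM in re-expressing cells, without overlap, and rose by 1.04 (SE 0.26, adjusted p = 0.0457). ASPH, a hydroxylase of EGF-like domains, read 1364, 867 and 617 CPM in control cells, 1813, 2152 and 1276 CPM in re-expressing cells and 1536, 897 and 668 CPM in overexpressing cells. Its pools overlapped, although every re-expressing library was above its same-numbered control, and the blocked rise was 0.94 (SE 0.23, adjusted p = 0.0431). These named rises had adjusted p from 0.149 to 0.335 without the block.

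The 4 genes that fell after HIF-1α re-expression were SEMA6A, DGCR5, KMO and FHL2. SEMA6A, a transmembrane semaphorin, read 38.7, 205 and 168 CPM in control cells, 18.0, 73.7 and 77.0 CPM in re-expressing cells and 62.9, 197 and 208 CPM in overexpressing cells. Replicate 1 was lowest in each pool and each re-expressing library was below its same-numbered control, so that the blocked log2 fold change was -1.24 (SE 0.18, adjusted p = 0.0293) and overexpressing cells exceeded re-expressing cells by 1.56 (adjusted p = 0.00369). DGCR5, a long non-coding RNA gene, read 21.0, 27.1 and 35.2 CPM in control cells, 10.7, 10.3 and 8.60 CPM in re-expressing cells and 32.1, 28.3 and 50.3 CPM in overexpressing cells. Its re-expressing libraries were below all others, with a blocked log2 fold change of -1.45 (SE 0.25, adjusted p = 0.0315), and its site was called in all 4 other lists.

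KMO encodes kynurenine 3-monooxygenase of tryptophan breakdown. It read 11.6, 41.1 and 75.2 CPM in control cells and 5.17, 23 and 36.6 CPM in re-expressing cells, overlapping ranges in which each re-expressing library was below its same-numbered control (-1.0, SE 0.20, adjusted p = 0.0357). FHL2, a LIM-domain cofactor, read 384, 267 and 531 CPM in control cells and 203, 176 and 187 CPM in re-expressing cells, without overlap (-0.98, SE 0.25, adjusted p = 0.0486). Without the block the 4 falls had adjusted p from 0.149 to 0.543 in edgeR, and DESeq2 passed DGCR5 alone (adjusted p = 0.00049).

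**Figure D4:**
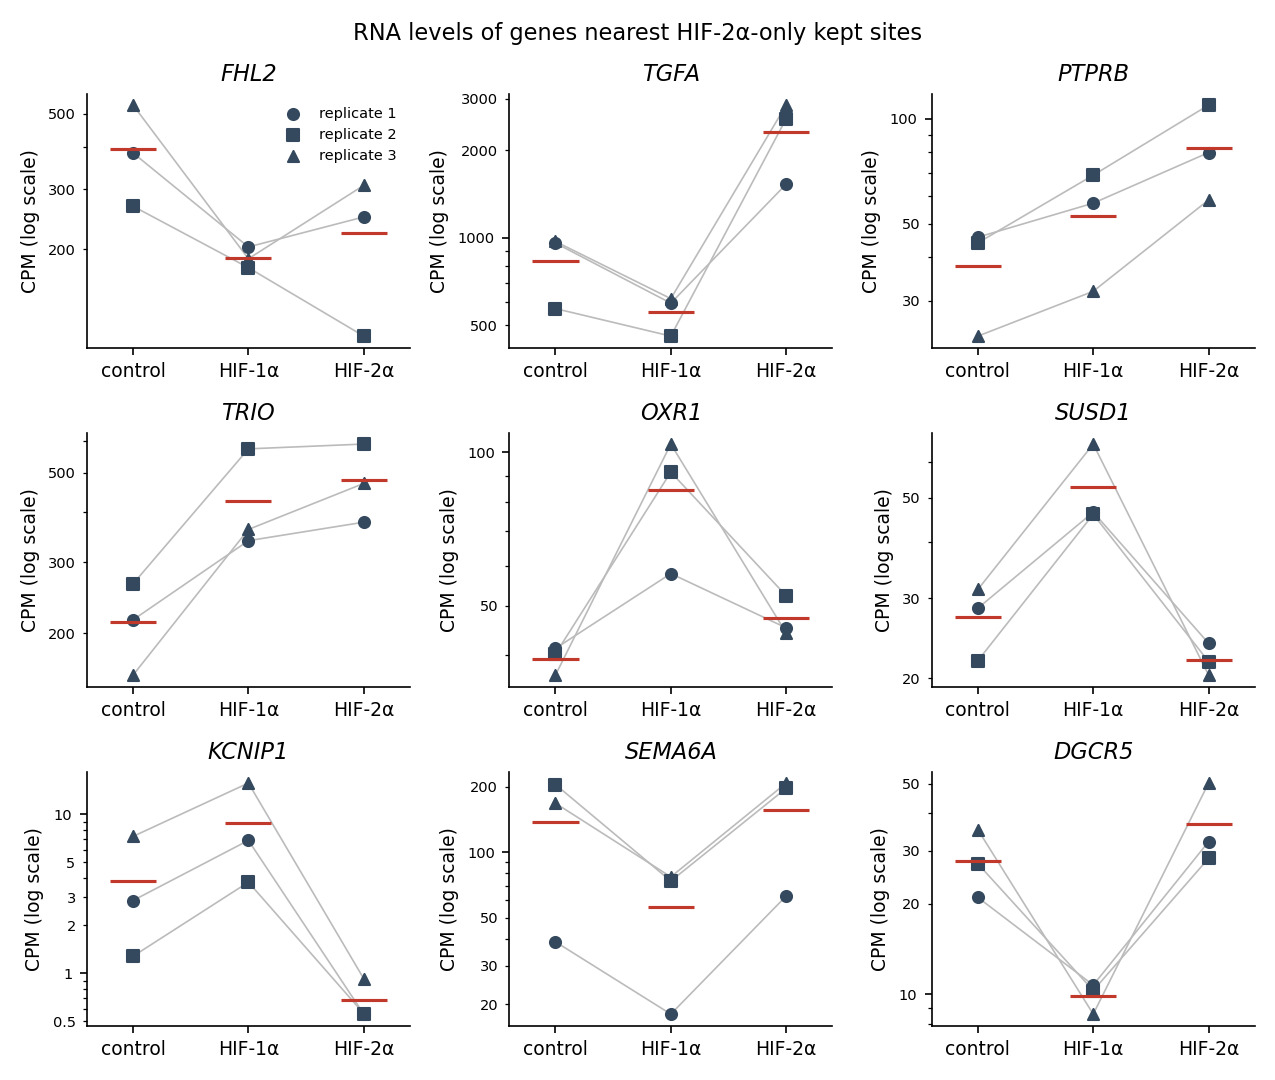
RNA levels in CPM (log scale) of 9 genes nearest to HIF-2α-only kept sites in control, HIF-1α re-expressing and HIF-2α overexpressing cells, with 1 point for each library and a grey line joining libraries of the same replicate number. TGFA is highest in the overexpressing cells, OXR1 and SUSD1 in the re-expressing cells, and DGCR5 is lowest in the re-expressing cells, at 8.60 to 10.7 CPM.

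Some listed hypoxia genes were among the nearest genes. Of 87 genes in 8 lists of HIF targets, matrix genes and AP-1 subunits, 4 were nearest to a kept site, among them TGFBI of the angiogenic and secreted factors and TGFA and MET of the growth and receptor genes. That is 4.71% of the 85 listed genes tested, beside 1.04% of all genes tested, given as a description with no test. None of the 20 genes of glucose uptake and glycolysis, and none in the lists for oxygen sensing, pH and iron handling, matrix and collagen enzymes, mitochondria or AP-1 subunits, was the nearest gene. Of these 85 genes, 10 rose (11.8%, against 5.41% of all genes) and none fell after HIF-1α re-expression in the blocked fit, while 2 rose (2.35%, against 0.112%) and none fell after HIF-2α overexpression. The 10 were 4 of 10 matrix and collagen enzymes, 2 of 9 mitochondrial and demethylase genes and 1 each of the oxygen sensing, growth, pH and iron, and AP-1 lists. Their median log2 fold changes without the block were 0.56 and 0.30, beside 0.04 and -0.02 for all genes.

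Assigning each kept site to the nearest protein-coding gene in place of any gene paired 11 listed genes with a kept site, among them SLC2A1, which encodes the glucose transporter GLUT1, and FOSL2, an AP-1 subunit. This assignment sets no limit on distance: the listed gene CITED2 lies 607 kb and FOSL2 118 kb from its kept site. Of 285 genes tested under that assignment, the blocked fit called 26 higher and 8 lower after HIF-1α (9.12% and 2.81%, against 5.41% and 2.55% of all genes) and 3 higher and 1 lower after HIF-2α (1.05% and 0.351%, against 0.112% and 0.155%). SLC2A1 and COL6A3 were chosen for description after their values were seen. SLC2A1, whose site at chr1:43427323-43429822 is 4.01 kb upstream and called in all 4 other lists, read 1264, 995 and 944 CPM in control cells and 1591, 2959 and 2403 CPM in overexpressing cells, without overlap, but its blocked log2 fold change of 1.08 (SE 0.25) had an adjusted p of 0.14, and DESeq2 without the block gave 0.0476. COL6A3, a chain of collagen VI, read 497, 263 and 245 CPM in control cells, 1877, 1282 and 1700 CPM in re-expressing cells and 356, 1028 and 118 CPM in overexpressing cells, and rose by 2.36 (SE 0.59, adjusted p = 0.0454) after HIF-1α. Its kept site, 102 kb away, is 1 of the 4 with both motifs printed above.

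HAS2, a hyaluronan synthase whose kept site lies 171 kb away, read 1.53, 2.87 and 3.07 CPM in control cells, 10.8, 14.6 and 12.5 CPM in re-expressing cells and 1.54, 2.72 and 0.591 CPM in overexpressing cells. Its re-expressing libraries stood well above all others, with a rise of 2.35 (SE 0.43, adjusted p = 0.0335). FOSL2, whose kept site lies 118 kb away, rose by 0.91 (SE 0.23, adjusted p = 0.0455) after HIF-1α, from 124, 137 and 102 CPM to 153, 259 and 289 CPM. SYT13, of the synaptotagmin family, read 73.7, 93.7 and 57.3 CPM in control cells and 159, 383 and 203 CPM in overexpressing cells. It rose by 1.63 (SE 0.25, adjusted p = 0.0404) after HIF-2α, while its kept site, 115 kb away, was called in none of the 4 other lists. HAS2, FOSL2 and SYT13 were also chosen after their values were seen.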

How the data were processed

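Chromatin was immunoprecipitated once for each antiserum and pool, and polyA+ RNA was sequenced from 3 libraries of each pool. Per the submitters' processing notes and the study's methods, ChIP reads were trimmed with Trim Galore 0.3.3, aligned to GRCh37 (hg19) with BWA 0.7.5a-r405, filtered with SAMtools 0.1.19, bedtools 2.17.0 and Picard 1.106, and peaks found by T-PIC and MACS were kept above a background threshold. The authors deposited each list as windows of 2500 bp without score, so a site that misses that threshold is absent and the window midpoint stands in for the summit. RNA reads were aligned with TopHat2 2.0.8b and Bowtie 1.0.0, and the authors deposited raw counts for each gene symbol from HTSeq 0.5.4p3.

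Windows sharing at least 1 base were taken as overlapping. Start sites and annotation came from the GRCh37 gene annotation (64449 genes, 221300 start sites). Of 23441 symbols in the count table, 20654 matched it directly and 1357 through a RefSeq synonym. Shares carry 95% Wilson intervals and differences Newcombe intervals. Counts were tested with edgeR 4.0.16 (R 4.3.3; TMM, filterByExpr, quasi-likelihood test, all 9 libraries in 1 fit, Benjamini-Hochberg adjustment over 14225 genes, threshold 0.05), and every adjusted p is from edgeR unless DESeq2 1.42.0 is named. CPM are TMM-scaled counts. Replicate numbers are in the labels, which do not say what they share: deviations from the pool means correlated at 0.348 to 0.652 in the 9 same-numbered pairs and at -0.478 to 0.0281 in the 18 others, so values with the replicate number as a block are printed where they change a call. Scripts were tested on simulated data.

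Named genes were the 3 HIF subunits, listed genes nearest a kept site, genes nearest to 3 or more kept sites, and, among genes past the threshold with the block, at least 5 CPM and the same direction in all 3 pairs, the 8 largest rises and 5 largest falls in each comparison with control cells. The sites, gene lists and alternatives were chosen with earlier results of these data known. Input DNA was not analysed here, and some results that meet these rules are not reported here.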

Additional observations from a re-analysis of the deposited data

How the results depend on the processing

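For the 4 other lists, kept sites were compared with sites not called again only under the alternative of 50% of the window in common. The rule on midpoints gives shares of kept sites alone. Requiring 50% of the window in common gave 389 kept sites, with control HIF-1β at 89.2% and HIF-2α of overexpressing cells at 92.3% of them, and the differences from sites not called again were 24.9, 27.9, 21.0 and 34.0 points over the 4 lists. Requiring midpoints at most 250 bp apart gave 417 kept sites and lower shares, at 46.0% and 29.7% for HIF-1β of control and re-expressing cells and 64.3% and 40.5% for HIF-2α and HIF-1β of overexpressing cells. Both rules were applied to HIF-1α windows as well, so the 389 and the 417 include sites that share bases with a HIF-1α window. The share within 5 kb of a start site was 18.0% with protein-coding genes only and 20.4% with 1 start site for each gene. HRE cores were found at 26.8% of kept sites within 50 bp and 74.8% within 250 bp of the midpoint, and AP-1 motifs at 8.04% and 33.5%, against 12.4% and 41.9% of sites not called again.

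Counts of genes called near kept sites depended on the fit, in the order HIF-1α re-expressing against control, HIF-2α overexpressing against control, and overexpressing against re-expressing cells. Without a block edgeR called 0, 0 and 0, with each single library left out also 0, and without a filter on low counts 4 in the last. With the replicate number as a block it called 14, 2 and 23, DESeq2 9, 4 and 16, and DESeq2 with the block 41, 18 and 34 (27.9%, 12.2% and 23%, against 22%, 3.39% and 12.5% of all genes). The blocked fit called 34, 4 and 48 genes with sites assigned to protein-coding genes and 32, 3 and 42 with every gene within 50 kb. Leaving out all libraries of 1 replicate number from the blocked fit gave 0 to 6, 0 to 1 and 6 to 12 genes, with 11 in the last when replicate 2 was left out, and calls over all genes were 0 to 295, 7 to 30 and 265 to 386. The block with wider assignments, the block without a replicate, DESeq2 with the block and the copy limit on motifs were added after the data had been seen. Another 59 shares and counts moved by less than their counting error or kept to the same side of the threshold. For single genes, 439 alternative fold changes kept direction and side of the threshold, 105 passed it in the same direction and none reversed. Causes of these changes were not tested. With 1 ChIP library for each antiserum, unknown ChIP depth and no peak heights, an absent window cannot be told from a signal just under the caller's threshold, and 3 RNA libraries for each pool limit what the counts can show.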
